A study of Mus musculus with 3 samples.

Results

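The mitochondrial ribosomal protein genes are the nuclear genes for the protein part of the mitochondrial ribosome. They were taken as every gene annotated as protein coding whose symbol is Mrpl or Mrps followed by a number and at most 1 letter. The rule found 78 genes, 49 Mrpl and 29 Mrps, among 55536 annotated genes, of which 22028 were protein coding. The rule uses no measured value.

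RNA after ribosomal RNA depletion was sequenced from the cytosol of macrophages grown from the bone marrow of C57BL/6J mice, a primary culture. The cells had received lipid A, the part of bacterial endotoxin that activates macrophages, at 100 ng/ml for 12 h. Lipid A was then washed out for 12 h, and the cells were collected at 0 min of a second exposure. The series holds 3 libraries of this 1 condition, labelled as biological replicates 1, 2 and 3 under 1 donor identifier, and the labels give no age or sex. There was therefore no untreated reference. The values below are levels, and the only differences tested are those between the 3 libraries, which measure the spread between these libraries and may in part be technical.

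Mitochondria keep their own ribosomes, which translate the few messenger RNAs of the mitochondrial genome into core subunits of the respiratory chain and ATP synthase. The ribosomal RNAs are made inside the organelle, while all of the ribosomal proteins are encoded in the nucleus, made on cytosolic ribosomes and imported. Many of these proteins descend from bacterial ribosomal proteins and others are found only in mitochondria, where the protein share of the ribosome is larger than in bacteria.

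The libraries held 28981178, 53119941 and 46783133 expected counts on annotated genes in replicates 1, 2 and 3. Macrophage markers were high, with Lyz2 between 3117 and 3499 TPM (a level scaled by the length of the transcript and the size of the library), and 13 markers of neutrophils, B cells, T cells, fibroblasts, erythroid cells and mast cells lay between 0 and 0.08 TPM. Protein-coding genes held 29.9 ± 2.35% of all TPM (SD, n = 3), so a TPM value here is smaller than it would be in a library of messenger RNA alone. Replicate 3 stood apart. The 5 nuclear-retained RNAs examined, led by Malat1, summed to 176, 103 and 1441 TPM in replicates 1, 2 and 3, and the 13 protein-coding genes of the mitochondrial genome summed to 2161, 1911 and 4983 TPM.

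All 78 members were detected at 1 TPM or more in every library, and 46 reached 10 TPM in every library. The median member lay at 11.7, 12.4 and 12.5 TPM in replicates 1, 2 and 3, which is 12.2 ± 0.456 TPM (SD, n = 3). The median protein-coding gene at 1 TPM or more in every library lay at 8.70 ± 0.833 TPM (SD, n = 3, over 9074 genes). The median member stood at percentile 60.4 of those genes, and single members lay between percentile 15.8 and percentile 93.1. By mean level, 8 members lay under 5 TPM, 23 between 5 and 10, 40 between 10 and 25, and 7 at 25 or more. Of the members, 75.6% lay within 2-fold of their own median, against 43.1% of those 9074 genes around theirs. The share was 73.7% for cytosolic ribosomal protein genes, 67.1% for nuclear genes of the respiratory chain and 76.2% for genes of mitochondrial ribosome assembly, so this spread is not particular to the members. Together the members summed to 1115, 1133 and 1149 TPM.

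**Figure D1:**
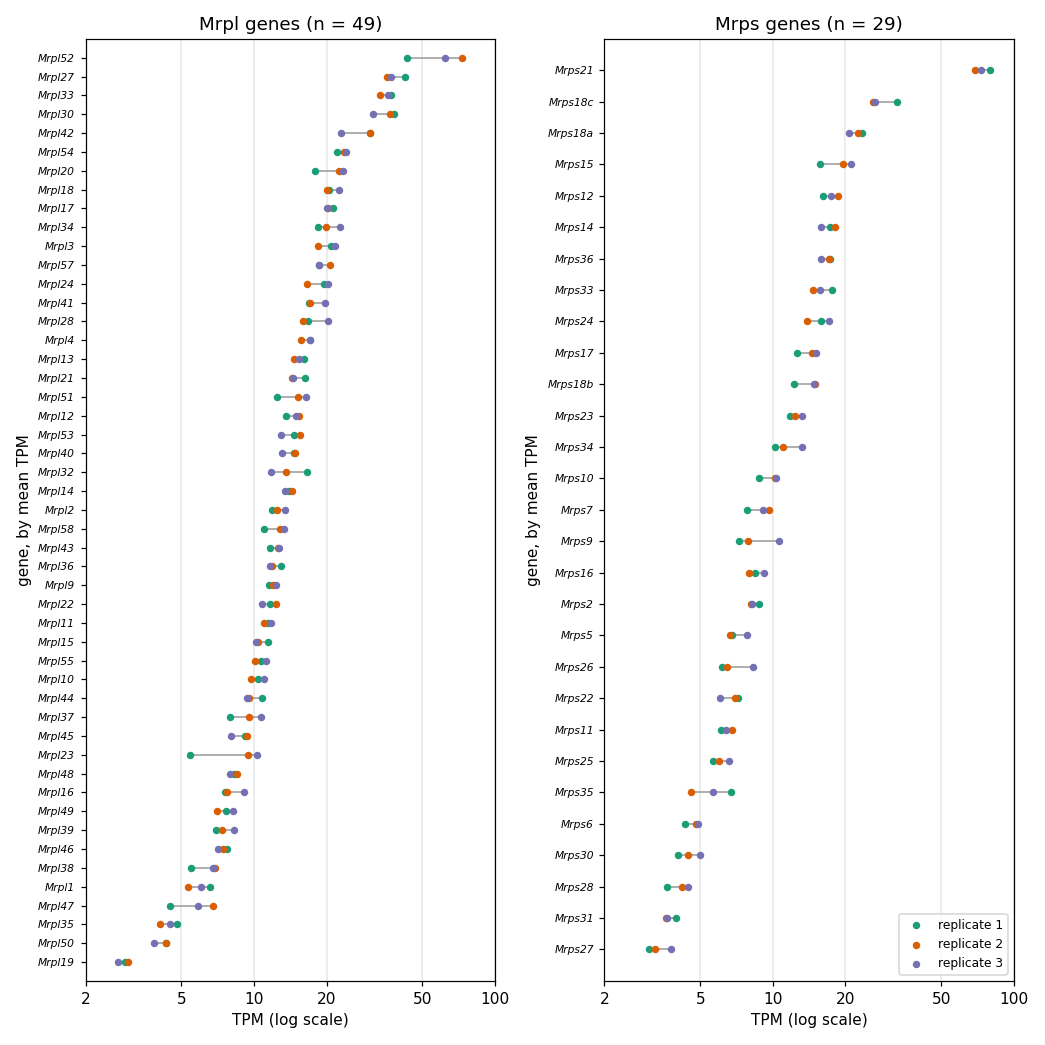
TPM (log scale) of each of the 49 Mrpl genes and the 29 Mrps genes, sorted by mean, with 1 point per library and a line over the range of the 3 libraries. Mrps21 and Mrpl52 lie above all other members, and the lowest is Mrpl19 at a mean of 2.88 TPM.

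Most of the proteins are present in a single copy in the finished particle, and the messenger RNA levels of the members spanned 25.7-fold between the highest and the lowest member. The highest was Mrps21 on chr3:95862634-95871519, minus strand in build mm10, the counterpart of bacterial S21 at the platform of the small subunit. It had 79.4, 68.9 and 73.1 TPM in replicates 1, 2 and 3. The lowest was Mrpl19 on chr6:81957851-81965958, minus strand, the counterpart of bacterial L19, with 2.91, 3.00 and 2.72 TPM. The ranges of these 2 genes were far apart in every library. The 10 highest members held 32.3% of the summed level, and the lowest 31 held 18.4%.

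Among the Mrpl genes, Mrpl52, whose protein has no bacterial counterpart, was the highest, with 43.4, 73.3 and 62.0 TPM. Of the value in replicate 2, 14.6 TPM came from Mrpl52-207, a transcript of 134 bases listed at 0 TPM in replicates 1 and 3. The main coding transcript Mrpl52-201 had 40.4, 53.1 and 56.2 TPM. Replicate 1 lay well below the other libraries for this gene. It was followed by Mrpl27, the counterpart of bacterial L27 next to the peptidyl transferase centre, with 42.4, 35.7 and 37.1 TPM. Mrpl33, Mrpl30 and Mrpl42 came next, with means of 35.5 ± 1.92, 35.3 ± 3.72 and 27.8 ± 4.17 TPM (SD, n = 3). The neighbours Mrpl27, Mrpl33 and Mrpl30 in this order did not differ beyond their spread. At the low end, above Mrpl19, stood Mrpl50 at 4.16 ± 0.275 TPM, Mrpl35 at 4.45 ± 0.351, Mrpl47 at 5.70 ± 1.13 and Mrpl1 at 5.98 ± 0.638 (SD, n = 3). Mrpl47 is the counterpart of bacterial L29 at the exit tunnel, and Mrpl1 belongs to the mobile stalk that handles departing transfer RNA.

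Among the Mrps genes, Mrps21 was followed by Mrps18c with 32.8, 25.9 and 26.6 TPM and by Mrps18a with 23.5, 22.5 and 20.6 TPM. Mrps15 and Mrps12 followed, at 18.7 ± 2.80 and 17.4 ± 1.20 TPM (SD, n = 3). Mrps12 is the counterpart of bacterial S12, which lines the decoding centre. The lowest were Mrps27 with 3.05, 3.24 and 3.77 TPM, Mrps31 at 3.73 ± 0.188 TPM, Mrps28 at 4.09 ± 0.408, Mrps30 at 4.48 ± 0.486 and Mrps6 at 4.66 ± 0.314 (SD, n = 3). Mrps27 is a pentatricopeptide repeat protein, a family that binds RNA.

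A trio of genes carries the name Mrps18. Their proteins are relatives of bacterial S18, but the Mrps18a protein sits in the large subunit and the other 2 in the small one. Their mean levels were 22.2 ± 1.44 TPM for Mrps18a, 14.0 ± 1.53 for Mrps18b and 28.4 ± 3.77 for Mrps18c (SD, n = 3). The order of the means was the same in all 3 libraries, and their ranges did not overlap.

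The median Mrpl gene was 1.33 ± 0.0864 times as high as the median Mrps gene, with 1.43, 1.32 and 1.26 in replicates 1, 2 and 3 (mean ± SD, n = 3). When Mrps18a and Mrps30, whose proteins sit in the large subunit, were counted there and Mrps36 was left out, the ratio was 1.40 ± 0.0669. Mrps36 is now known as a subunit of the 2-oxoglutarate dehydrogenase complex, and its gene had 17.3, 17.1 and 15.8 TPM in replicates 1, 2 and 3. The large-subunit median was above the small-subunit median in every library. The 46 genes with a bacterial counterpart had a median of 12.9 ± 0.151 TPM and the 31 specific to mitochondria 10.1 ± 0.568 TPM (SD, n = 3). The lowest median was that of the 10 mitochondria-specific genes of the small subunit, at 7.02 ± 0.375 TPM, and the 30 large-subunit genes with a bacterial counterpart had the highest of these classes, at 13.7 ± 0.285 TPM (SD, n = 3). Each SD here is over libraries of the same genes and not over genes. Over genes, the lower and upper quartiles were 8.84 and 18.75 TPM for Mrpl and 6.42 and 16.0 TPM for Mrps. They were 8.55 and 18.5 TPM with a bacterial counterpart and 6.85 and 14.5 TPM for those specific to mitochondria, so the classes overlapped widely.

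By place in the particle, the 5 genes of the peptidyl transferase region, where peptide bonds form, had a median of 16.6 TPM and lay between 8.14 (Mrpl16) and 38.4 TPM (Mrpl27). The 6 genes of the exit tunnel lay between 5.70 (Mrpl47) and 20.6 TPM (Mrpl17). The 6 of the central protuberance, where the subunits meet, lay between 6.38 (Mrpl38) and 21.1 TPM (Mrpl18). The 4 of the stalks lay between 5.98 (Mrpl1) and 14.6 TPM (Mrpl12). The 6 genes of the small-subunit head and decoding centre lay between 8.55 (Mrps9) and 17.4 TPM (Mrps12). The 5 of the platform spanned the most, between 4.66 (Mrps6) and 73.8 TPM (Mrps21).

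The members held 0.380 ± 0.0313% of the TPM of protein-coding genes (SD, n = 3), with 0.360, 0.416 and 0.364% in replicates 1, 2 and 3. The median member stood at 0.252 ± 0.0179 of the median nuclear gene of the respiratory chain and ATP synthase (mean ± SD, n = 3), whose 76 genes encode the partners of the proteins that mitochondrial ribosomes make. Atp5b, a catalytic subunit of ATP synthase and the highest of these, had 257 ± 10.7 TPM, and the lowest was Ndufb4 at 7.18 ± 0.621 TPM (SD, n = 3). The median member stood at 0.0746 ± 0.00637 of the median of 76 cytosolic ribosomal protein genes, whose median level was 164 ± 10.5 TPM (SD, n = 3). The highest cytosolic one was Rpl41 at 771 ± 48.9 TPM, and Rpl10l was listed at 0 TPM in all 3 libraries. The ordering of members below respiratory chain genes below cytosolic ribosomal protein genes held in each library.

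**Figure D2:**
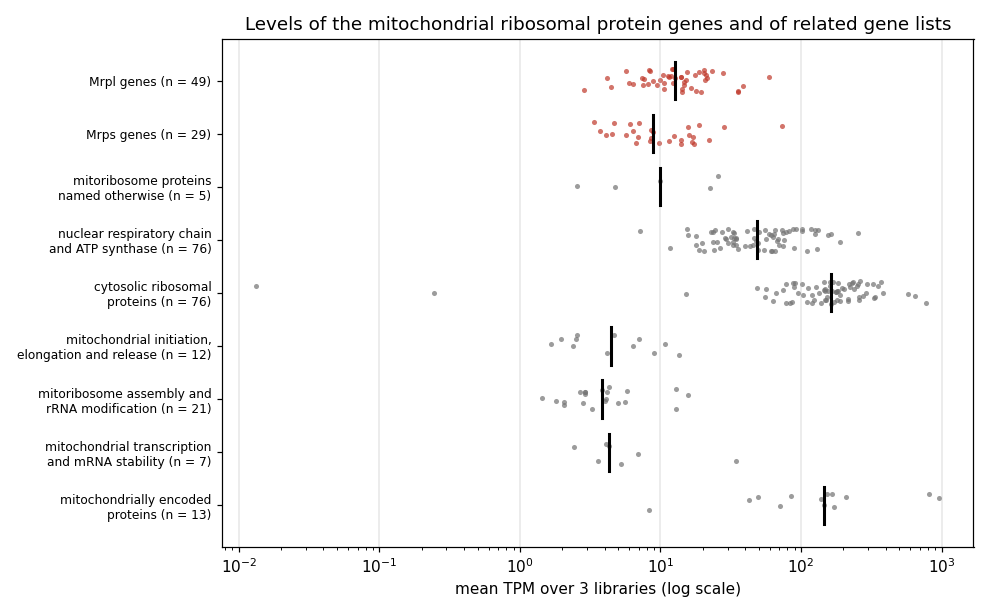
Mean TPM over 3 libraries (log scale) of each Mrpl and Mrps gene (red) and of genes in 7 related lists (grey), with a black bar at each list's median; genes listed at 0 have no point. The members' medians lie below those of the nuclear respiratory chain and cytosolic ribosomal protein genes and above those of the genes for mitochondrial translation factors, assembly and transcription, while the single genes of these lists overlap.

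Other lists of mitochondrial translation genes had lower medians. The 5 mitochondrial ribosomal proteins with other names had a median of 9.84 ± 1.54 TPM (SD, n = 3), between Chchd1 at 25.7 TPM and Gadd45gip1 at 2.55 TPM. The 12 genes for initiation, elongation, membrane insertion and release had a median of 4.43 ± 0.776 TPM (SD, n = 3). The highest was Tufm, the mitochondrial elongation factor that delivers transfer RNA, with 13.3, 13.2 and 14.5 TPM. The 21 genes for assembly of the particle and modification of its ribosomal RNA had a median of 3.70 ± 0.508 TPM (SD, n = 3), led by Rbfa, an assembly factor of the small subunit, at 15.7 ± 3.52 TPM. The 7 genes for mitochondrial transcription and messenger RNA stability had a median of 4.57 ± 0.171 TPM (SD, n = 3), although Slirp, an RNA-binding partner of Lrpprc, reached 34.6 ± 7.15 TPM. Each of these 3 lists of factors lay below the member median in every library.

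Members with shorter transcripts had higher TPM. For the 78 members, log2 mean TPM and log2 length of the leading transcript, the one with the most TPM, had a Pearson r of -0.56 and a Spearman rho of -0.51. The points are genes of the same libraries, and TPM is itself a count divided by length. Over 75 cytosolic ribosomal protein genes r was -0.32 and rho -0.45, and over 76 nuclear respiratory chain genes r was -0.30 and rho -0.37. Over the 9074 protein-coding genes r was -0.22 and rho -0.18. The members' leading transcripts had a median length of 921 bases, against 2674 bases for the 9074 genes, and 5 members had a leading transcript under 500 bases. All of the 10 highest members had one under 1000 bases. The libraries were made with fragments of 250 to 400 bases per the labels, and how far fragment size moved the levels of short transcripts was not tested. On the scale of counts the relation had the other sign, with r = 0.26 for log2 mean expected count.

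Each library pair had a Pearson r between 0.965 and 0.983 for log2 TPM over the 78 members, which share the libraries and their depth. No member of 78 was called at a ratio of at least 2 between its highest and lowest library, where 16.2% of all 13636 genes tested and 8.12% of the 11540 protein-coding genes were called. The count was also 0 with DESeq2 size factors, and the largest ratio of a member was 1.73. The test was a chi-square test of the counts with Benjamini-Hochberg adjustment over all genes, which takes only counting error as the spread. At a ratio of at least 1.5, 5 of 78 members (6.41%) were called, against 27.2% of all genes and 19.7% of protein-coding genes. Between 5.35 and 22.5 TPM, the 10th and 90th percentile of the members' levels, 1.80% of 3887 protein-coding genes were called at 2 and 9.00% at 1.5. At a ratio of 2, none of 74 cytosolic ribosomal protein genes and none of 76 nuclear respiratory chain genes was called either. With no minimum ratio, 65 of 78 members (83.3%) passed, against 75.6% of all genes, 75.9% of protein-coding genes and 85.0% of those in the level band. The median coefficient of variation of a member over the 3 libraries was 12.3%, against 9.90% in that level band. Over replicates 1 and 2 alone the members' median was 7.45%, and no such value was computed for the level band.

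The 5 members called at 1.5 were Mrpl52, Mrpl42, Mrpl53, Mrpl32 and Mrpl23, all of the large subunit. All but Mrpl32 were highest in replicate 2. Mrpl52 had 13.1, 21.6 and 17.9 CPM (counts scaled to library size, here by edgeR's TMM method) in replicates 1, 2 and 3, a ratio of 1.64 (chi-square adjusted p = 1.03e-15), and replicate 1 was lowest. Mrpl42 had 21.3, 24.1 and 15.2, a ratio of 1.58 (chi-square adjusted p = 4.41e-22). Mrpl53 had 11.3, 13.4 and 8.82, a ratio of 1.52 (chi-square adjusted p = 1.59e-10). In both Mrpl42 and Mrpl53 replicate 3 was lowest, and 88.0% of the exon bases of Mrpl53 are shared with Gm42688 on the same strand. Mrpl32 had 19.4, 16.8 and 12.0, a ratio of 1.62 (chi-square adjusted p = 1.34e-15), with replicate 1 highest and replicate 3 lowest. Leaving out 1 library left 2 of the 5 each time: Mrpl42 and Mrpl53 without replicate 1, Mrpl23 and Mrpl32 without replicate 2, and Mrpl23 and Mrpl52 without replicate 3.

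That largest ratio belonged to Mrpl23, the counterpart of bacterial L23 at the exit tunnel, and is uncertain. It had 4.12, 7.16 and 6.84 TMM-scaled CPM in replicates 1, 2 and 3, a ratio of 1.73 (chi-square adjusted p = 1.11e-06). Its processed pseudogene Mrpl23-ps1, a near copy elsewhere in the genome, had 183, 302 and 189 expected counts, while Mrpl23 had 115, 378 and 334. Summed, the gene and the copy had 10.7, 12.9 and 10.7 TMM-scaled CPM, a ratio of 1.21 (chi-square adjusted p = 0.00253), and 16.9, 18.2 and 17.9 TPM. The sum thus varied less than the gene alone. The 2 deposited quantifications also divided the pair differently: in the read-derived table, Mrpl23 had 0.615, 0.889 and 0.752 TPM and Mrpl23-ps1 7.79, 7.62 and 4.36 TPM.

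For the other members the gene table and the read-derived transcript table, summed per gene and both rescaled to the same total over protein-coding genes, gave close levels. The median ratio of read-derived over gene-table level was 0.988, and 76 of 78 members lay within 1.5-fold of equality. Apart from Mrpl23 at 0.238, the exception was Mrpl19 at 1.65, and 36.0% of the exon bases of Mrpl19 overlap Gcfc2 on the other strand. The next highest ratios were 1.37 for Mrps5, 1.32 for Mrpl35, 1.30 for Mrps7 and 1.23 for Mrpl51, and the next lowest 0.831 for Mrps12, 0.906 for both Mrpl52 and Mrps21, and 0.916 for Mrpl13. Over the 78 members the log2 levels had a Pearson r of 0.954 and a Spearman rho of 0.981.

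**Figure D3:**
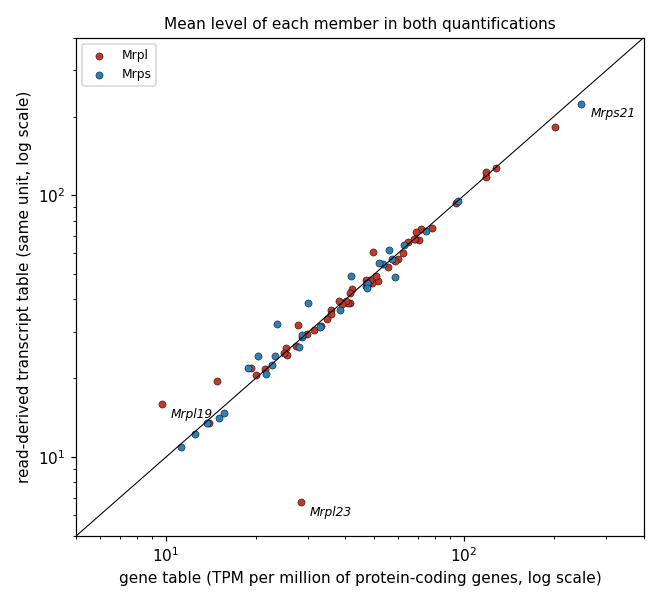
Mean level of each member in the gene table (horizontal) and in the read-derived transcript table (vertical), both in TPM rescaled to protein-coding genes on log scales, with the line of equality. Mrpl23 lies below the line at a ratio of 0.238 and Mrpl19 above it at 1.65.

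As a group the members leaned towards replicate 2 and away from replicate 3. By TMM-scaled CPM, 59 members were highest in replicate 2, 15 in replicate 1 and 4 in replicate 3, while of the 9073 protein-coding genes at 1 TPM or more that were tested 3663 were highest in replicate 2, 3313 in replicate 1 and 2097 in replicate 3. The median member had a log2 ratio of -0.23 for replicate 3 over the mean of replicates 1 and 2. The median of all 11540 protein-coding genes tested was -0.07, so the members lay 0.16 lower on the log2 scale. Over the 9073 genes at 1 TPM or more the median was -0.09, and over the 3887 genes in the level band -0.10, both closer to the members. The sign of the members' own median depended on the scaling: it was -0.22 with DESeq2 size factors, -0.14 with total counts, -0.06 with TPM rescaled to protein-coding genes and 0.06 with TPM as deposited. The distance to the median protein-coding gene ran between -0.17 and -0.16 on these 5 scales, and 55 to 66 of 78 members lay below that median. In replicate 2, 74 of 78 members lay above the median protein-coding gene by TMM-scaled CPM, by 0.16 at the median, and 71 did by TPM.

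The cytosolic ribosomal protein and nuclear respiratory chain genes leaned the same way. The distance of replicate 3 to the median protein-coding gene was -0.28 at the median cytosolic ribosomal protein gene and -0.18 at the median nuclear respiratory chain gene. The Mrpl genes had a median log2 ratio of -0.25 and the Mrps genes of -0.16. Of the 13 protein-coding genes of the mitochondrial genome, 12 went the other way. Their median log2 ratio was 1.05 over all 13, and 10 of the 13 (76.9%) were called at a ratio of 2. The exception was mt-Nd3, which was lowest in replicate 3 at -0.39. One of the called genes, mt-Co2, was listed at 0 TPM in replicate 1. The 5 nuclear-retained RNAs all were highest in replicate 3 and all were called, with a median log2 ratio of 2.76. The part of these RNAs in the lean of the members was not tested. In these bulk cytosol samples, fewer cells of a type and less RNA per cell cannot be told apart.

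**Figure D4:**
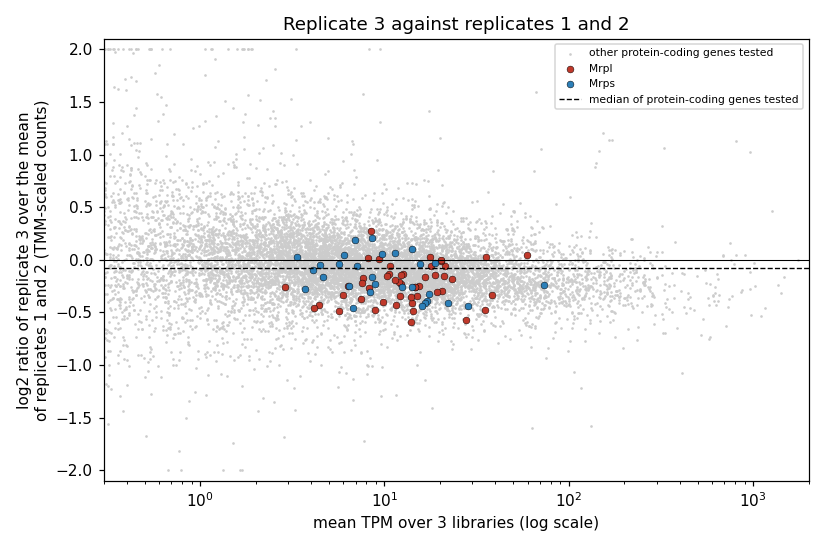
Log2 ratio of replicate 3 over the mean of replicates 1 and 2, in TMM-scaled counts, against mean TPM (log scale), for Mrpl genes (red), Mrps genes (blue) and the other protein-coding genes tested (grey; ratios beyond 2 in either direction are drawn at 2). The members' median of -0.23 lies below the dashed median of protein-coding genes at -0.07, and 64 of 78 members lie below 0, a side that changes with the scaling.

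Most members were led by a transcript annotated as coding. GENCODE lists 343 transcripts for the 78 genes, and transcripts annotated as protein coding held 85.1 ± 0.385% of the members' TPM (SD, n = 3). Transcripts annotated as targets of nonsense-mediated decay, a pathway that degrades messages with early stop codons, held 5.82 ± 0.704%. Transcripts with a retained intron held 4.75 ± 0.920%, and processed transcripts, which have no annotated reading frame, 4.29 ± 0.306% (SD, n = 3). The leading transcript was the same in all 3 libraries for 69 members and the same in the read-derived table for 74.

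For 13 members (16.7%) the leading transcript was not annotated as coding, against 4.66% of the 9074 protein-coding genes, 3.95% of 76 cytosolic ribosomal protein genes and 6.58% of 76 nuclear respiratory chain genes. They were 8 Mrpl and 5 Mrps genes, with 5 leaders annotated as decay targets, 5 as processed transcripts and 3 as retained introns. In the read-derived table there were 12 of 78 (15.4%), against 5.68% of the 9074 genes. When transcripts were ranked by expected counts, which do not divide by length, there were 7 members (8.97%), against 2.66% of the 9074 genes. Those 7 were Mrpl3, Mrpl15, Mrpl32, Mrpl57, Mrps14, Mrps16 and Mrps26. A quantifier divides reads that fit several transcripts of a gene, so these shares are estimates.

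Mrpl57, a large-subunit gene on chr14:57826234-57829296, plus strand, was the clearest case. Its transcript Mrpl57-202, annotated as a retained intron, had 17.4, 19.5 and 17.4 TPM in replicates 1, 2 and 3, against 1.25, 1.21 and 1.26 TPM for the coding transcript Mrpl57-201. The leader is 519 bases long and holds the whole coding sequence of 306 bases, while Mrpl57-201 is 2877 bases long. In this case the annotated class and the sequence therefore differ. It was the one leader of the 13 with the whole coding sequence.

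The other 12 leaders were compared, from either end, with the coding sequence of the highest coding transcript of the same gene. Mrps14-201, annotated as a decay target, had 15.3, 16.2 and 14.2 TPM, against 1.49, 1.47 and 1.45 TPM for the coding Mrps14-203. It held the first 12.0% and the last 88.8% of the coding sequence of 384 bases, with further bases in between. Mrps16-202, a processed transcript with 88.0% of its gene's TPM, held the last 96.8%, and Mrpl51-202 the last 80.5%. Their longest reading frames were 150 and 237 bases, against coding sequences of 405 and 384 bases. That of Mrpl32-201 was 516 bases, against 561. Mrps26-201, a retained intron with most of its gene's TPM, held the first 60.0% and the last 40.3% of the coding sequence, with further bases in between. Mrpl32-201 held the last 77.4% and Mrpl47-202 the last 58.9%. Mrpl3, whose protein lies at the peptidyl transferase region, was the most divided: Mrpl3-204, a decay target, held 43.6% of its TPM, and its non-coding classes together 84.6%. Mrpl13, Mrpl15, Mrpl35, Mrps25 and Mrps35 had leaders with 56.3, 58.2, 54.0, 62.8 and 73.8% of their gene's TPM.

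**Figure D5:**
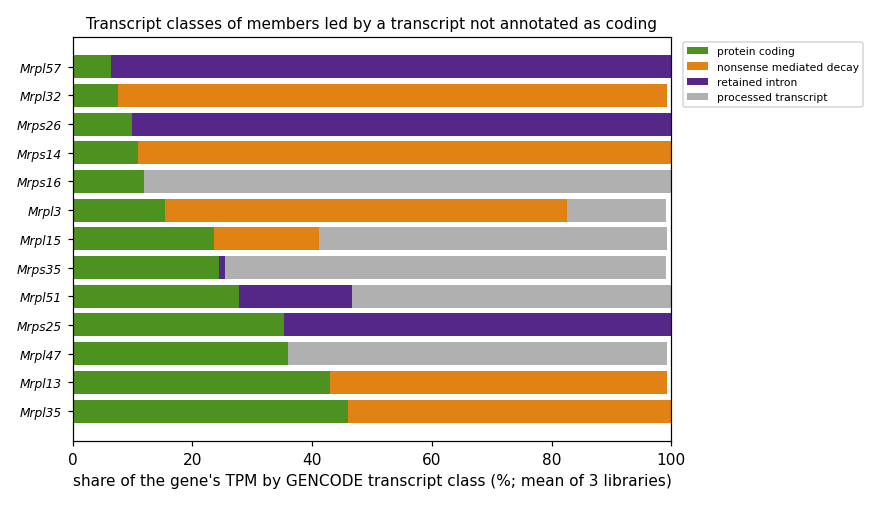
Share of the gene's TPM (%, mean of 3 libraries) by GENCODE transcript class for the 13 members whose leading transcript is not annotated as protein coding; transcripts under 1% of the gene's TPM are left out. The non-coding share runs between 54.0% (Mrpl35) and 93.6% (Mrpl57).

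The members often had a neighbour that starts close by on the other strand. For 33 of 78 members (42.3%) another protein-coding gene began within 1000 bases on the opposite strand, head to head, against 18.6% of the 9074 protein-coding genes at 1 TPM or more and 10.8% of all 22028. In 18 of the 33 the genes lay apart, and in 15 their 5′ ends overlapped. Within 500 bases the shares were 32.1%, 15.6% and 8.89%. The median level was 12.3 TPM over the 33 members and 11.6 TPM over the other 45. Some of the 33 partners are genes of mitochondria or of protein making, and others, such as Eme1 and Zfp189, are not. No share of such partners was counted, here or over other genes. Mrpl36 overlaps the 5′ end of Ndufs6, a subunit of respiratory complex I at 33.4 ± 1.27 TPM (SD, n = 3), by 30 bases. Mrpl47 overlaps the 5′ end of Ndufb5, another such subunit, at 25.1 ± 3.13 TPM (SD, n = 3). Mrps12 begins next to Sars2, the mitochondrial seryl-tRNA synthetase, at 1.82 ± 0.0351 TPM, and Mrpl43 overlaps the 5′ end of Twnk, the helicase of mitochondrial DNA, at 1.16 ± 0.267 TPM (SD, n = 3).

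Of the 32 distinct pairs, 6 had mean levels within 2-fold of each other. The member was the higher gene in 20 of the other pairs and the partner in 6. Mrpl49 had 7.68, 7.03 and 8.21 TPM in replicates 1, 2 and 3, although its deposited posterior mean TPM was 15.5 ± 6.10 (SD, n = 3). Fau, a cytosolic ribosomal protein gene that begins 59 bases away from Mrpl49, had 409, 400 and 406 TPM. Mrps27 had 3.35 ± 0.373 TPM and its neighbour Ptcd2, a mitochondrial RNA-processing gene, 10.7 ± 0.724 TPM (SD, n = 3). Members could also exceed the partner: Mrpl27 had 38.4 ± 3.58 TPM and Eme1, a DNA-repair nuclease subunit, 0.350 ± 0.0781 TPM (SD, n = 3). Of the 33 partners, 25 reached 1 TPM on average, and their median was 3.40 TPM. Mrps11 and Mrpl46 are the 1 pair of members in this arrangement, with overlapping 5′ ends, on chr7:78783119-78792989 and chr7:78775236-78783531. Mrps11 had 6.07, 6.79 and 6.41 TPM and Mrpl46 7.75, 7.42 and 7.11 TPM, so the 2 ranges lay close but did not overlap. In all, 33 members share exon bases with another gene, 28 of them with one on the other strand. The sources used here do not say whether reads were counted by strand, so reads in those bases cannot be assigned with certainty.

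Promoter sequence from RefSeq (GRCm38.p6, 250 bases before to 50 after the start) was at hand for 69 members. The motif CCGGAAG, bound by factors of the ETS family, was in 34.8% of their windows on either strand, against 21.8% of 7268 windows of protein-coding genes at 1 TPM or more and 12.3% of 16520 windows of all protein-coding genes. GCGCANGCG, the core of the site of NRF1, an activator of nuclear genes for mitochondria, was in 23.2%, against 16.0% and 9.23%. AAGATGGCG, read by YY1, was in 11.6% (8 members, with 6 of the 8 matches after the start), against 3.98% and 2.03%. At least 1 of these 3 was in 58.0% of the members' windows, against 36.6% of the windows of genes at 1 TPM or more. CCAAT was as common as elsewhere, at 39.1%, against 38.8% in both other sets. TATAAA was in 5.80%, against 6.55% and 12.9%, and CACGTG in 7.25%, against 11.1% and 8.09%. These shares are descriptions of letters in a window.

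The median level was 16.7 TPM for the 24 members with CCGGAAG and 9.77 TPM for the 45 without it. For GCGCANGCG the medians were 12.9 and 12.4 TPM, and for AAGATGGCG 10.8 and 12.4 TPM. The stretches below are the 100 bases before the RefSeq start of 6 members in which no annotated exon falls, chosen after their values were seen. They show CCGGAAG before members of high and of lower level, and GCGCANGCG and CCAAT before 1 member each. Capitals mark CCGGAAG or its reverse complement in the first 4, GCGCANGCG in Mrpl45 and CCAAT in Mrps12, whose stretch lies between its start and that of Sars2.
Mrpl52 (chr14:54426809-54426908, plus strand): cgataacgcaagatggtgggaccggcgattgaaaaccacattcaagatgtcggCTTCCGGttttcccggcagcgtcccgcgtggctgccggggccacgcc
Mrpl34 (chr8:71464826-71464925, plus strand): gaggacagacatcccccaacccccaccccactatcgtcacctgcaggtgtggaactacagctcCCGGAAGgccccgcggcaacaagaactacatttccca
Mrpl43 (chr19:45006443-45006542, minus strand): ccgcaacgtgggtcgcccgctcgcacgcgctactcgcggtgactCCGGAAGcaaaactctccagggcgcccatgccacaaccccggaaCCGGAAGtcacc
Mrps22 (chr9:98601680-98601779, minus strand): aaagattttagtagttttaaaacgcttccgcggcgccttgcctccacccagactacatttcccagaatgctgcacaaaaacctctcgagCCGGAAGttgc
Mrpl45 (chr11:97315616-97315715, plus strand): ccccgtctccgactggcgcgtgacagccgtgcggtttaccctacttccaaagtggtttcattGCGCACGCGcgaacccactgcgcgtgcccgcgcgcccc
Mrps12 (chr7:28741822-28741921, minus strand): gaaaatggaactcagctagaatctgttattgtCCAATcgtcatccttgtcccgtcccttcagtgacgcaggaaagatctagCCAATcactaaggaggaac
Mrpl52 and Mrpl34 are high members, at 59.5 ± 15.1 and 20.4 ± 2.26 TPM, and Mrps22 and Mrpl45 lie below the member median, at 6.72 ± 0.580 and 8.84 ± 0.727 TPM (SD, n = 3). Of these, Mrpl45 has GCGCANGCG marked, so Mrps22 is the only printed member below the member median with CCGGAAG. Over the members with a window, the median level was 16.7 TPM with CCGGAAG and 9.77 TPM without it.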

How the data were processed

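The deposited gene tables hold expected counts, TPM, FPKM and posterior mean TPM, and interval bounds (a score whose level is not stated), per the file headers. The deposited read-derived transcript tables hold estimated counts and TPM. Reads were assigned to GENCODE M21 on mm10 per the labels and identifiers. Which aligner and quantifier ran was not given in the sources used here. Rows that name no gene held 0.165 to 0.418% of expected counts and were left out. Values were summarised per library with Python 3.11.15, pandas 2.3.3 and scipy 1.17.1. Expected counts were rounded and scaled by TMM in edgeR 4.0.16. Each gene with a mean of 10 or more was compared between libraries by a chi-square test with 0.5 counts added for ratios, tested on simulated data. The simulated counts held counting error only, as the test assumes. They therefore cannot show how the test does on libraries with further spread, such as these. With 1 group, edgeR's quasi-likelihood test has no contrast. DESeq2 1.42.0 gave alternative size factors. The members, lists and rules for named genes (the 5 highest and 5 lowest Mrpl and Mrps genes by mean TPM, called members, members led by a transcript not annotated as coding, the 5 largest and smallest quantification ratios, and the highest and lowest of each list) were chosen with earlier results of these data known. Subunit and site assignments are textbook knowledge.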

Additional observations from a re-analysis of the deposited data

How the results depend on the processing

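The depth of the libraries gave each member 94 or more expected counts, and the deposited intervals around TPM had a median width of 18.1 ± 3.32% of the value (SD, n = 3), so smaller differences in a single library lie within them; the level of these intervals is not stated. Of the recomputed values, 69 stayed within the spread between libraries or within 1.5 times the count, 16 moved and 1 changed sign. For levels, level ratios and shares, leaving out 1 library cannot shift the mean of 3 beyond their SD. Those recomputations could only count as staying, so they say nothing about robustness. For the replicate 3 ratio and the coefficient of variation, the spread was that of the same values with 1 library left out. Among the mean levels of single members, 4 moved with posterior mean TPM, of which Mrpl49 moved most, to 15.5 TPM, and all 78 moved in the read-derived tables, whose scale is lower. The median member level was 4.77 TPM in the read-derived tables and 40.9 TPM when rescaled to protein-coding genes. The count of members at 10 TPM or more was 78 at a threshold of 1 TPM, 11 at 20 TPM, 3 in the read-derived tables and 76 with TPM rescaled to protein-coding genes. With means of log2(TPM + 1) in place of medians, the large over small subunit ratio was 1.25 and the ratio to cytosolic ribosomal proteins 0.0974, and the ratio to cytosolic ribosomal proteins was 0.0815 in the read-derived tables. The count of members at a ratio of 1.5 was 3 with total counts, and 2 with any 1 library left out. The median log2 ratio of replicate 3 was -0.0615 with TPM rescaled to protein-coding genes and reversed to 0.0633 with TPM as deposited. The non-coding share was 16.9% in the read-derived tables. The cause of these moves was not tested, except that a threshold or total changes the count by construction. Without 1 library each, the median coefficient of variation lay between 7.45% (without replicate 3) and 13.9%. Added after seeing the data were TPM as deposited for that ratio, the ranking by counts, the Mrpl23 sum, the ratio relative to protein-coding genes and leaving out members that share exon bases. No paired analysis was possible because the series has 1 group.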
